A study of Mus musculus with 6 samples.

Results

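Transcripts of the EphA receptors and the ephrin-A ligands were followed in cultured cortical astrocytes of newborn mice after a control or a Cre lentivirus. The members were fixed by gene symbol: every probe whose platform annotation names Epha1, Epha2, Epha3, Epha4, Epha5, Epha7, Epha8, Efna1, Efna2 or Efna5. Of these 10 genes, 9 had a probe, 6 of them receptors and 3 ligands, with 10 probes in all among the 23473 on the array. No probe used here carries the symbol Epha1, so this gene was not analysed here. Epha5 had 2 probes and each other gene 1. The family was chosen by the Cre and control log2 intensities of these same arrays, in which Epha5 and Epha7 read lower, so differences between the groups are given as descriptions with their errors and support no claim about the family.

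EphA receptors are receptor tyrosine kinases that bind ephrin-A ligands, which are held on the surface of neighbouring cells by a lipid anchor. Contact between the cells sends a forward signal through the receptor and a reverse signal through the ligand, and it often ends in repulsion of the growing process. In the developing brain, graded EphA and ephrin-A levels guide axons into ordered maps, and in the mature brain the pair is known for contacts between astrocyte processes and dendritic spines.

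All 6 samples came from postnatal day 0 cortex of C57BL/6J mice whose Chd7 alleles are floxed on both chromosomes (Chd7flox/flox), so control cultures carried the floxed alleles as well. Chd7 encodes a chromatin remodeller. Infection was with a control lentivirus (3 samples) or a Cre lentivirus (3 samples, labelled Chd7 KD), in medium that held B-27, EGF, FGF2 and 10% FBS, and cells were taken 3 days later. The promoter that drives Cre, the share of infected cells and whether replicates were separate cultures are not given in the sources used here. Only the Chd7-targeted cultures held Cre, so recombinase and gene loss cannot be told apart. Values are log2 intensities after background correction against blank spots and quantile normalisation, unless the authors' deposited linear values are named. Their fold changes are compressed for probes close to the blanks. Errors, intervals and p-values come from a fit that does not pair the arrays, except where the replicate number is named as a block.

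Fewer probes were detected on each Cre array than on any control array. Between 82.8 and 87.0% of probes lay above background on the Cre arrays and between 87.4 and 90.7% on the control arrays, above background meaning a spot over 2 SD above the mean of the blank spots. The number of arrays limits the precision. The brighter Chd7 probe (M300016343), the check of the labels, read 6.92, 7.49 and 6.95 log2 units in control replicates 1 to 3 and 6.00, 5.97 and 6.01 in Cre replicates 1 to 3. All Cre arrays were lower than all control arrays for that probe. The other Chd7 probe (M400002483), close to background, overlapped between the groups with means of 6.14 and 6.03. All 10 astrocyte markers examined (Gfap, Slc1a3, Slc1a2, Aldh1l1, Aqp4, S100b, Glul, Sox9, Gja1 and Fgfr3) lay above background. In RNA of whole cultures, fewer cells of a type and less RNA per cell cannot be told apart.

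Upstream sequence is shown for the 4 genes whose groups did not overlap, 2 read lower with Cre (Epha5, Epha7) and 2 higher (Epha2, Efna1). Each run holds the 250 bases before an annotated transcript start, taken from RefSeq's GRCm38.p6 table, 5′ to 3′ on the gene's strand. The first listed start was used where a gene had several, and for Epha5 and Epha7 the table's gene boundary lies further out than that start. The runs are chr5:84417383-84417632 on the minus strand for Epha5, chr4:28812881-28813130 on the plus strand for Epha7, chr4:141300971-141301220 on the plus strand for Epha2 and chr3:89280952-89281201 on the minus strand for Efna1. Capitals mark the GC box GGGCGG, searched on both strands (CCGCCC on the other).
Epha5: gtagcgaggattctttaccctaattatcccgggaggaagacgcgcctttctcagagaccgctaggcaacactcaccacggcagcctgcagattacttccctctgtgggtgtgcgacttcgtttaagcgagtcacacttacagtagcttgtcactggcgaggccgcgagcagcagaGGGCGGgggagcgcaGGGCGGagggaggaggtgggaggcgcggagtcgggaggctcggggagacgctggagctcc
Epha7: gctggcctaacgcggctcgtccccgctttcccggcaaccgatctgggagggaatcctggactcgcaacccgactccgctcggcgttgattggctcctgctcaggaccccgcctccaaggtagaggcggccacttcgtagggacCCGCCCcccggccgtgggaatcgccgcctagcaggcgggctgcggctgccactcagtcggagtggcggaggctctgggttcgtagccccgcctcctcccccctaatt
Epha2: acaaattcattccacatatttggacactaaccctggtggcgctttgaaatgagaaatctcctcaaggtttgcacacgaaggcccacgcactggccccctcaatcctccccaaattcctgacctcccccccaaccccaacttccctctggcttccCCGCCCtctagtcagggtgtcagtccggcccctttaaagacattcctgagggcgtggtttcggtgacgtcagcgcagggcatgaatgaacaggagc
Efna1: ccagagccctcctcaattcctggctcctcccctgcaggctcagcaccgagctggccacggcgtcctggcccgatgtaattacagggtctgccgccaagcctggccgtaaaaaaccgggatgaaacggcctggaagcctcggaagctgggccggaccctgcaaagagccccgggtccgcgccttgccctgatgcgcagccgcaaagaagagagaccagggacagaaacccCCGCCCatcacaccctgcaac
The Epha5 run holds 2 GC boxes, starting 75 and 60 bases before the start, and each of the other 3 runs holds 1. The window of the second listed Efna1 start holds 2. Members whose groups overlapped hold GC boxes as well: 6 in Epha8, 4 in Efna5, 2 in Efna2 and 1 in Epha4, but 0 in Epha3. Among all 32851 such windows in the table, 32.7% hold at least 1 GC box. GC content was 62.4% for Epha5, 69.2% for Epha7, 55.6% for Epha2 and 64.8% for Efna1, against a median of 52.4% over all windows. Members whose groups overlapped had 62.8% (Epha3), 66% (Epha4), 73.6% (Efna2), 74.8% (Efna5) and 84% (Epha8). The E-box CANNTG, present in 66.2% of all windows, was found in none of these 4 runs, and neither was the TATA box TATAAA (12.4% of all windows, both strands). Among the members whose groups overlapped, only Epha8 holds an E-box. In the 4 runs shown, the CCAAT box (CCAAT or ATTGG, 33.8% of all windows) occurred once, in Epha7. Epha4 and Epha8, whose groups overlapped, hold 1 each. These matches are descriptions of letters only.

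Among the receptors, Epha5 had the greatest difference. This receptor is best known from neurons of the developing forebrain, where it takes part in axon guidance. Probe M400006395 read 7.70, 8.17 and 7.69 log2 units in control replicates 1 to 3 and 7.45, 7.21 and 7.09 in Cre replicates 1 to 3. Control replicate 2 was the highest array, and the lowest control array stood 0.24 above the highest Cre array. The second Epha5 probe, M300006569, read 7.09, 7.36 and 7.22 in the control arrays and 6.66, 6.60 and 6.73 in the Cre arrays. Here too control replicate 2 was highest and the groups were apart, by 0.36.

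For M400006395 the control mean was 7.85 ± 0.28 (SD, n = 3) and the Cre mean 7.25 ± 0.18 (SD, n = 3), a log2 difference of -0.60 (SE 0.16, 95% interval -1.01 to -0.20). For M300006569 the means were 7.22 ± 0.13 and 6.66 ± 0.06 (SD, n = 3 each), a log2 difference of -0.56 (SE 0.08, 95% interval -0.75 to -0.37). Both Epha5 probes thus gave a difference of about the same size. Of the 20540 probes tested, 27 (0.131%) were at least as far below 0 as M400006395 and 35 (0.17%) at least as far as M300006569. Between same-numbered arrays the differences were -0.25, -0.96 and -0.59 for the first probe and -0.43, -0.76 and -0.49 for the second. With groups that do not overlap, each such difference had to be below 0.

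**Figure D1:**
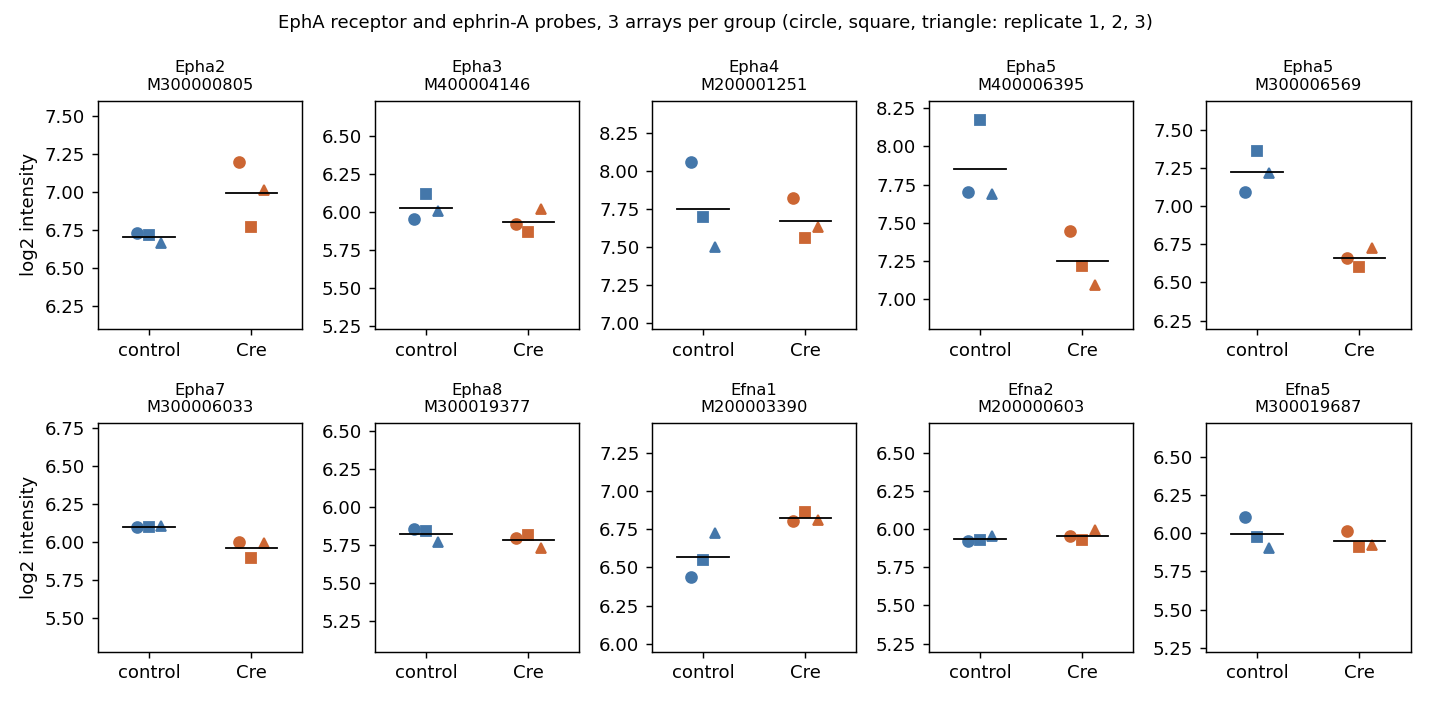
Log2 intensity of every EphA and ephrin-A probe on the 3 control (blue) and 3 Cre (orange) arrays. Each panel spans 1.5 log2 units, symbols mark the replicate number and the line is the group mean. Both Epha5 panels and those of Epha7, Epha2 and Efna1 have no overlap between the groups.

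In the authors' deposited linear values, Epha5 probe M400006395 read 92, 163 and 97 in the control arrays and 74, 50 and 50 in the Cre arrays. The Cre mean was 49.4% of the control mean. Probe M300006569 read 51, 77 and 61 in the control arrays and 31, 25 and 33 in the Cre arrays, and 47.1% of the control mean was left. On the log2 scale these deposited values differ by -0.99 and -1.08, where the median of all probes was shifted by -0.17.

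The Epha5 direction depended on the background for 1 of its probes. With the scanner's local background column in place of the blank spots, M400006395 turned to 0.21 and M300006569 stood at -0.28, where the median of all probes was 0.03. That column held 81.2 to 98.1% of the spot's own value for M400006395 and 47.4 to 93.6% for M300006569. Around probe spots it averaged 179 to 322 units, but 57.5 to 63.0 around blank spots. Leaving out control replicate 2 gave -0.44 and -0.49.

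**Figure D2:**
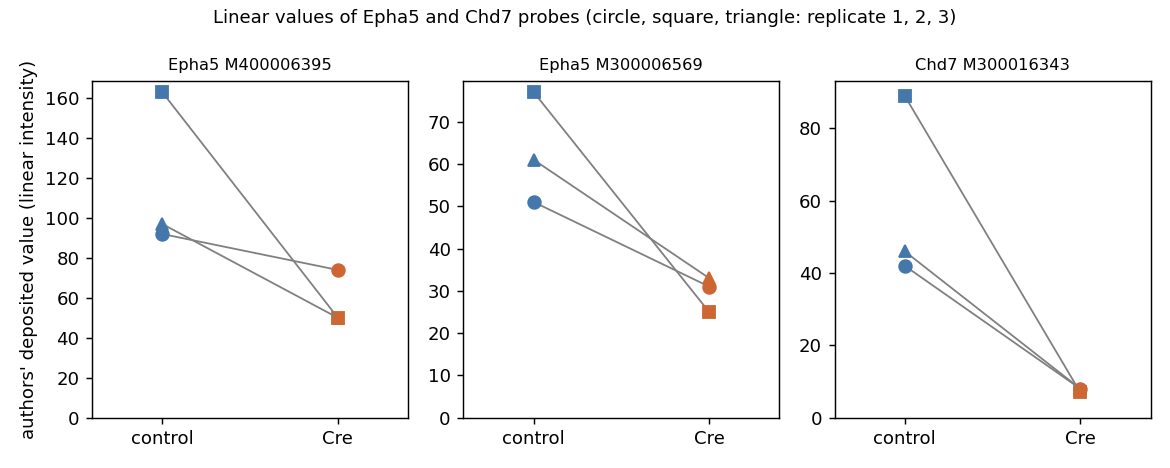
Authors' deposited linear values of both Epha5 probes and the brighter Chd7 probe, with same-numbered control and Cre arrays joined by lines. Every line descends, as it must where the groups do not overlap. Control replicate 2 (square) is the highest array in each panel, at 163, 77 and 89.

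Epha7, a receptor with roles in cortical map formation and in the sorting of neural progenitors, was close to background in every array. Its probe M300006033 read 6.10 in each of the 3 control arrays and 6.00, 5.90 and 5.99 in Cre replicates 1 to 3. The control arrays were nearly equal and the groups stood apart by 0.10. The log2 difference was -0.14 (SE 0.04, 95% interval -0.24 to -0.04), and 9.29% of all probes were at least as far below 0. The authors' deposited values were 11, 12 and 12 in control and 8, 5 and 8 in Cre arrays, 60.0% of the control mean. For so dim a probe the size of the difference rests on the background step: it was -0.29 with an offset of 16 in place of 50, -0.60 with the blank mean subtracted, -0.77 in the deposited values and -0.06 with the local background column.

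Epha2, a receptor widely expressed in epithelia and in proliferating cells, read higher with Cre. Probe M300000805 gave 6.73, 6.72 and 6.66 log2 units in control replicates 1 to 3 and 7.20, 6.77 and 7.02 in Cre replicates 1 to 3. The Cre arrays were more spread out, and Cre replicate 2 was only 0.04 above the highest control array. The means were 6.70 ± 0.04 and 6.995 ± 0.21 (SD, n = 3 each), a log2 difference of 0.29 (SE 0.11, 95% interval 0.02 to 0.56). In the deposited linear values the groups overlapped, at 33, 37 and 32 in control and 58, 31 and 46 in Cre arrays. Without Cre replicate 1 the difference was 0.19. It was 0.11 with the local background column and 0.51 with the blank mean subtracted.

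Epha4, which binds ephrin-A and ephrin-B ligands alike and is known from axon repulsion and synapse control, did not separate the groups. Probe M200001251 read 8.05, 7.69 and 7.50 log2 units in control and 7.82, 7.56 and 7.63 in Cre arrays. Replicate 1 was the highest array of each group, and the difference of -0.08 (SE 0.15) had a 95% interval of -0.46 to 0.31.

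Epha3 and Epha8, receptors known from retinal and midbrain axon guidance, lay close to the blanks. The Epha3 probe M400004146 read 5.95, 6.12 and 6.00 in control and 5.92, 5.87 and 6.02 in Cre arrays, a log2 difference of -0.09 (SE 0.06, 95% interval -0.24 to 0.07). For Epha8 (M300019377) the readings were 5.85, 5.85 and 5.77 in control and 5.80, 5.81 and 5.73 in Cre arrays, a log2 difference of -0.04 (SE 0.04, 95% interval -0.15 to 0.07). Both probes overlapped between the groups. Their size rests on the background step as for Epha7: Epha3 stood at -0.43 with the blank mean subtracted and -0.66 in the deposited values, and Epha8 at -0.23 and -0.69, the last at an unadjusted limma p of 0.0484 with the groups still overlapping. The Epha8 spot exceeded the blank mean by only 2.34 to 8.56 blank SDs, close to the limit of 2 SD on the dimmest array.

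Of the ligands, Efna1 had the only probe without overlap. Ephrin-A1 is a ligand of EphA2 and is known from endothelial cells and from responses to inflammatory signals. Probe M200003390 read 6.43, 6.55 and 6.73 log2 units in control replicates 1 to 3 and 6.80, 6.86 and 6.81 in Cre replicates 1 to 3. The Cre arrays lay close together, 0.08 above control replicate 3. The means were 6.57 ± 0.15 and 6.83 ± 0.03 (SD, n = 3 each), a log2 difference of 0.26 (SE 0.08, 95% interval 0.06 to 0.45), and 2.8% of all probes were at least as far above 0. In the authors' deposited values Efna1 read 22, 28 and 34 in control and 37, 34 and 36 in Cre arrays, with a tie at 34. The difference was 0.12 with the local background column, 0.39 with an offset of 16 and 0.51 with the blank mean subtracted.

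Efna2 and Efna5, ligands that set up the retinal map in the midbrain, were dim and overlapped between the groups. The Efna2 probe M200000603 read 5.92, 5.93 and 5.96 in control and 5.96, 5.93 and 5.99 in Cre arrays, a log2 difference of 0.02 (SE 0.04, 95% interval -0.06 to 0.11). For Efna5 (M300019687) the readings were 6.11, 5.98 and 5.91 in control and 6.02, 5.91 and 5.92 in Cre arrays, a log2 difference of -0.05 (SE 0.06, 95% interval -0.21 to 0.11). Replicate 1 was the highest Efna5 array of each group. With the blank mean subtracted and in the deposited values, Efna2 stood at 0.12 and -0.01 and Efna5 at -0.20 and -0.36.

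**Figure D3:**
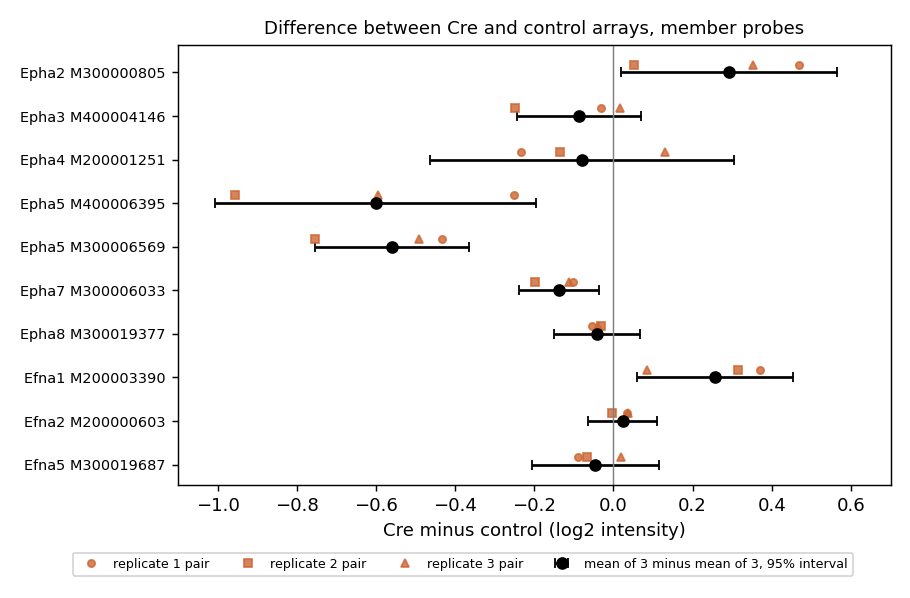
Cre minus control difference in log2 intensity for each member probe, as the difference of group means with its 95% interval (black) and for each same-numbered pair of arrays (orange). The Epha5 points lie furthest below 0, at -0.60 and -0.56, and those of Epha2 (0.29) and Efna1 (0.26) furthest above.

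In all, 7 of the 10 probes read lower with Cre and 3 higher, with a median difference of -0.06 against 0.00 for all probes. With the local background column 4 of the 10 read lower. After limma with Benjamini-Hochberg adjustment over all 20540 probes, 0 of the 10 passed 0.05, as did 0 (0%) of all probes, and the smallest adjusted p was 0.405, for the Epha5 probe M300006569 among others. At an unadjusted limma p under 0.05 stood 5 of the 10 probes, against 1153 (5.61%) of all probes; without control replicate 2 there were 3 of the 10. The same 5 probes had no overlap between the groups, against 10.5% of all probes; 3 read lower (5.31% of all) and 2 higher (5.22% of all). Both Epha5 probes are among them and are annotated to the same gene, and these values took part in the choice of genes, so nothing is read from these shares. With the replicate number as a block, 5 of the 10 and 1918 of all probes stood at an unadjusted p under 0.05 and again 0 passed.

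The EphA and ephrin-A genes on the array that are not among the members were measured as well. Epha6 differed by 0.03 (SE 0.04), Epha10 by 0.06 (SE 0.04), the ligand Efna3 by 0.06 (SE 0.11) and the ligand Efna4 by -0.07 (SE 0.15). Each of these 4 probes overlapped between the groups. Epha6, Epha10 and Efna3 were dim, with deposited values of 3 to 5, 11 to 15 and 7 to 20, where differences are compressed. The members were chosen by values of these arrays, so nothing is read from the contrast with them.

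Genes that work with Eph receptors were examined as a list of 50, made of the remaining receptors and ligands, the adaptors and kinases downstream, and coreceptors. Of these, 47 had a probe and all 47 were tested, with the brightest probe standing for a gene. They read higher in 27 and lower in 20 genes, with a median of 0.02 against 0.00 for all genes. None passed the adjusted threshold in limma; at an unadjusted p under 0.05 there were 2 lower and 2 higher, against 505 lower and 496 higher of 17138 genes. With the local background column 0 were lower at that level, and with median scaling 0 were higher. The count of higher genes was 1 without control replicate 3, Cre replicate 1 or Cre replicate 2, and 3 without control replicate 2 or Cre replicate 3.

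The smallest p-values for lower readings belonged to Rasa1, Nck1 and Acp1. Rasa1, a GTPase activating protein that binds activated Eph receptors and turns off Ras, read -0.39 (SE 0.09) with no overlap. The SH2 adaptor Nck1, which links receptors to actin, stood at -0.21 (SE 0.05), also without overlap, and the tyrosine phosphatase Acp1 at -0.18 (SE 0.14) with overlap. On the other side stood Cdc42, a GTPase of filopodia, at 0.23 (SE 0.07), the receptor phosphatase Ptprf at 0.25 (SE 0.10) and the kinase Abl2 at 0.07 (SE 0.03). These last 3 had no overlap between the groups, and Abl2 was dim, with group means of 5.95 (control) and 6.02 (Cre). Grb10 (-0.04, SE 0.03) had no overlap either. In all, 6 of the 47 genes had no overlap, against 1825 of all 17138 genes, so nothing is read from the lack of overlap.

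**Figure D4:**
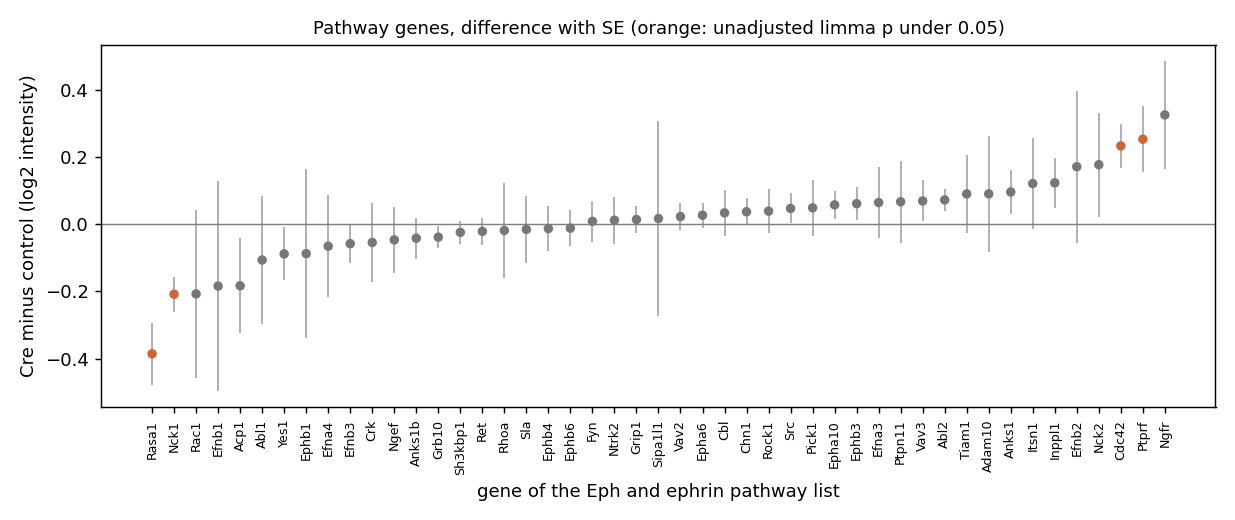
Cre minus control difference in log2 intensity, with its SE, for the 47 measured genes of the Eph and ephrin pathway list in ascending order. Orange marks the 4 genes at an unadjusted limma p under 0.05, Rasa1 and Nck1 below 0 and Cdc42 and Ptprf above.

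Markers of other cells that express these genes were set beside the results. Of 12 neuron and neuroblast markers, all above background, 8 read higher and 4 lower with Cre, with a median of 0.02; their summed deposited values were 484 to 657 in control and 435 to 551 in Cre arrays. Among them Stmn2, a tubulin-binding protein of growing axons, stood at -0.34 (SE 0.12), the only one lower at an unadjusted limma p under 0.05. Higher at that level were the transcription factor Neurod1 at 0.46 (SE 0.07), Nefm at 0.39 (SE 0.07) and Nefl at 0.16 (SE 0.06). Over all 17138 genes, 505 were lower and 496 higher at that level. Of 7 endothelial markers, Pecam1, Cldn5 and Tek did not reach the background limit in 3 arrays and 4 were tested. The growth factor receptor genes Flt1 (-0.05, SE 0.48) and Kdr (0.03, SE 0.06) were among those measured, with Cdh5 at 0.01 (SE 0.04). Ly6c1, at 0.14 (SE 0.06), was the only one at an unadjusted limma p under 0.05, and 1 of the 4 had no overlap. Sums over the list were 74 to 191 in control and 73 to 137 in Cre arrays, with 11 empty values counted as 0.

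Of 11 microglia markers measured, 7 read lower, with a median of -0.11, 4 lower and 1 higher at an unadjusted limma p under 0.05, and 6 without overlap. Over all 17138 genes, 505 were lower and 496 higher at that level, and 1825 had no overlap. The complement genes C1qb (-0.71, SE 0.17), C1qa (-0.67, SE 0.11) and C1qc (-0.37, SE 0.10) and the adaptor Tyrobp (-0.26, SE 0.06) read lower, while the lysosomal Cd68 stood at 0.48 (SE 0.08). Summed deposited values of the list, with 5 empty values counted as 0, were 355 to 391 in control and 273 to 359 in Cre arrays. Itgam was not above background. The oligodendrocyte lineage list had 6 of 9 lower (sums 1508 to 2824 and 1387 to 2130), and the fibroblast and mural list 5 of 7 lower (177 to 1075 and 117 to 774). Radial glia and neural stem cell markers were split, with 3 of 6 lower (49268 to 52484 and 49978 to 52553). Of these only Prom1, at 0.61 (SE 0.08), stood at an unadjusted limma p under 0.05. Astrocyte markers read higher in 9 of 10, with a median of 0.23, and 4 were higher and 0 lower at an unadjusted limma p under 0.05: Aldh1l1 at 0.72 (SE 0.17), Aqp4 at 0.31 (SE 0.06), Fgfr3 at 0.26 (SE 0.10) and Glul at 0.23 (SE 0.08). That median is close in size to the Epha2 and Efna1 differences, with single markers spread from -0.05 (Sox9) to 0.72 (Aldh1l1). Their summed deposited values overlapped, at 3935 to 6186 in control and 4725 to 6045 in Cre arrays. What part these cells have in the Epha5, Epha7, Epha2 and Efna1 values was not tested.

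Genes with the profile most like that of Epha5 and of Epha2, the 2 members that differed most, were named by the root mean square distance between centred log2 profiles over the 6 arrays, among 17137 other genes. The brightest probe stood for each gene, so the second Epha5 probe was not ranked, and how near it lies was not asked. Nearest to Epha5 (M400006395), whose own profile departs from its mean by 0.36, were Ezh2 at a distance of 0.11, Reps1 at 0.12, Nudt16 at 0.12 and Hspb11 at 0.14. Ezh2, which encodes the methyltransferase of Polycomb complex PRC2, read 8.88, 9.49 and 8.81 in control and 8.58, 8.64 and 8.39 in Cre arrays, with control replicate 2 again the highest. Nearest to Epha2, whose own profile departs by 0.19, were Gdpd5 at 0.03, the pyruvate kinase gene Pkm at 0.04, the collagen receptor gene Ddr1 at 0.05 and the protease gene Bmp1 at 0.05. Pkm read 10.61, 10.57 and 10.44 in control and 11.05, 10.65 and 10.91 in Cre arrays, with Cre replicate 1 the highest, as for Epha2. These genes were picked for their likeness over the same arrays. A shared highest array or direction thus follows from the choice, and nothing is read from it.

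**Figure D5:**
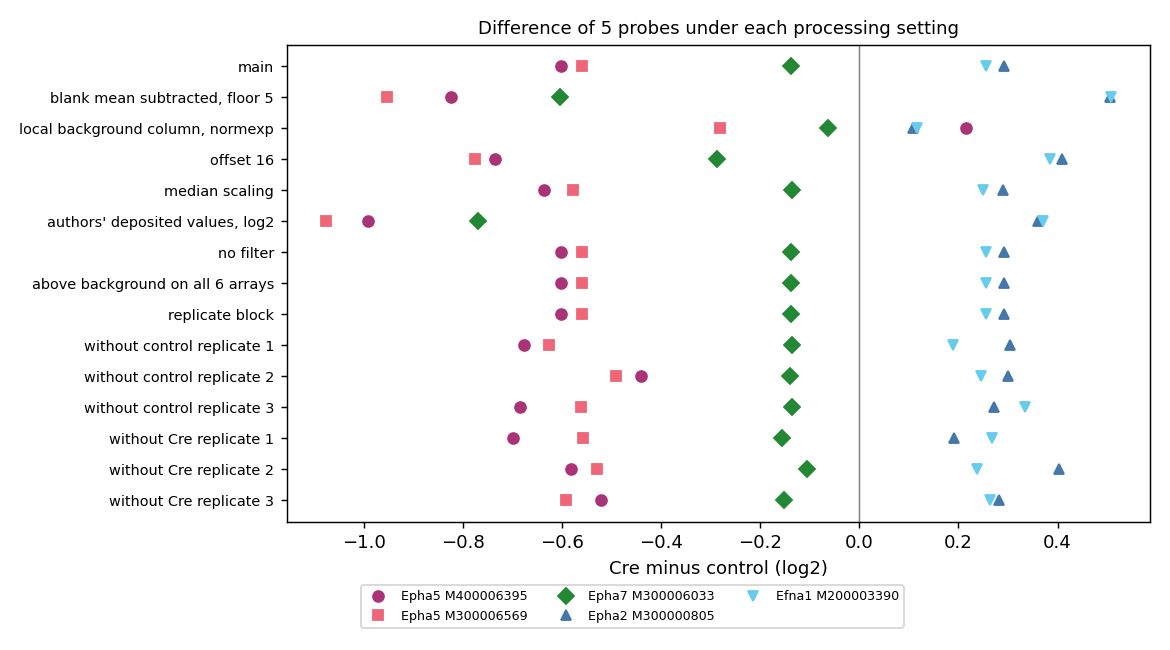
Cre minus control log2 difference of the 5 probes without overlap, under the main setting (top) and each alternative. Epha7 and the dimmer Epha5 probe stay below 0 and Epha2 and Efna1 above it under every setting shown, while Epha5 M400006395 turns to 0.21 with the local background column. The filters, the block and leaving an array out cannot reverse groups that do not overlap.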

How the data were processed

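Per the labels' protocols, aminoallyl RNA made from total RNA was labelled with Cy5; each array has 1 colour. Scanner files as deposited give 1 median intensity and 1 local background intensity per spot, not subtracted, per the file headers. The authors' deposited table holds intensity values; set against the scanner files, they were the spot less the blank mean, divided by 1 factor per array (1.44 to 1.93), with a median of 25. Other steps, and a genome build, are not given in the sources used here.

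Background was removed by normexp with the 2736 blanks as negative controls (limma 3.58.1, R 4.3.3, offset 50), log2 transformed and quantile normalised; spots marked by the scanner (0 to 9 per array) were left out. Probes above background on at least 3 of 6 arrays were kept (20540). Symbols came from the platform annotation, matched by Entrez identifier to RefSeq's GRCm38.p6 table (20556 of 23473 probes matched, 2783 unnamed). Groups were compared with limma (two-sided, Benjamini-Hochberg); p-values reflect only the spread of these samples, possibly a technical one. The fit was tested on simulated data in which all arrays were drawn independently. That test does not cover arrays that deviate together. Members, lists and tests were chosen with earlier results of these data known. All member probes are reported; the 3 pathway genes with the smallest p in each direction, and the 4 profiles nearest to each of 2 members, are named. Arrays with the same replicate number deviated together from their group means (r of 0.498, 0.425 and 0.436 across probes), which was read as pairing; the labels state no shared culture. The main fit leaves this pairing out. With the block the SE of Epha4 went from 0.15 to 0.09. The unadjusted limma p of Epha5 M300006569 went from 0.000489 to 0.00241. Alternatives were other backgrounds, offsets, scalings and filters, the deposited values, the block and each array left out; the marker sums were added after seeing the data. No slide or scan batch is given in the file headers, so none was fitted.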

Additional observations from a re-analysis of the deposited data

How the results depend on the processing

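The 2 Epha5 probes are given in the order M400006395 and M300006569. With the local background column they moved from -0.60 and -0.56 to 0.21 and -0.28; the deposited values gave -0.99 and -1.08. The second probe also moved to -0.95 with the blank mean subtracted and to -0.78 with an offset of 16. With 1 array left out they ranged from -0.70 to -0.44 and from -0.63 to -0.49. Member probes at an unadjusted limma p under 0.05 numbered 5, but 1 with the local background column, 3 with median scaling and 3 to 4 with 1 array left out. Over all probes that count went from 1153 to 613 with median scaling, 1826 in the deposited values and 1918 with the replicate block, and from 851 to 1378 with 1 array left out. No probe passed the adjusted threshold under any of the 14 alternatives. In this balanced design the block cannot change the size of a difference, only its error. Epha7, Epha2 and Efna1 kept their direction under all 14. Where groups do not overlap, the filters, the block and leaving an array out cannot reverse the direction. With the local background column the groups overlapped for Epha2 (0.11) and Efna1 (0.12). Among probes whose groups overlapped, Epha4 turned to 0.07 with the local background column and without control replicate 1, Epha3 to 0.03 with that column, Efna5 to 0.01 without control replicate 1 and Efna2 to -0.01 in the deposited values. Background signal limits Epha3, Epha7, Epha8, Efna2 and Efna5, whose spots came within 2.34 to 6.49 blank SDs of the blank mean on their dimmest array.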

Other observations

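The B class of the family, whose ephrin-B ligands span the membrane, was measured alongside. Of 4 EphB receptors with a probe, Ephb1 differed by -0.09 (SE 0.25), Ephb3 by 0.06 (SE 0.05), Ephb4 by -0.01 (SE 0.07) and Ephb6 by -0.01 (SE 0.05). Among the 3 ligands, Efnb1 stood at -0.18 (SE 0.31), Efnb2 at 0.17 (SE 0.23) and Efnb3 at -0.06 (SE 0.06). All 7 overlapped between the groups. Control replicate 2 read 8.18 for Efnb1, against 7.32 and 6.97 in the other control arrays, and 7.63 for Ephb1, against 7.09 and 6.94. Ngfr, a coreceptor in reverse signalling by ephrin-A ligands, read 5.85, 6.39 and 5.91 in control and 6.50, 6.38 and 6.24 in Cre arrays, a log2 difference of 0.32 (SE 0.16) with overlap; Ngfr is named after its value was seen.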
